A study of Homo sapiens with 32 samples.

Results

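The 38 genes described here encode the chaperones of the endoplasmic reticulum (ER), the machinery that removes misfolded ER proteins (ER-associated degradation) and the membrane sensors and transcription factors that control both. A member was measured by the probe sets whose platform gene symbol is exactly its name, and where a gene had several the probe set of highest mean over all arrays was used. By this rule 37 of the 38 members were measured, among 19775 genes in all; SYVN1, the ubiquitin ligase of the degradation complex, had 1 probe set, which is shared with another symbol, and is not analysed here. RNA levels came from 32 Affymetrix arrays of 2 human lung cancer lines, A549 (an adenocarcinoma line) and H460a (a line of large cell carcinoma, H460 in the series text). Cells of each line received 2 µM of the gamma-secretase inhibitor RO4929097 (GSI below) or vehicle for 6 h or for 24 h, with 4 arrays in each of the 8 groups. By its title the study is about Notch inhibition, and gamma-secretase makes the cut that releases the active part of Notch receptors. Nothing in the labels states that the 4 arrays of a group are separate cultures, so the errors and p-values describe differences among arrays that may be technical. Each line is a single cultured line measured in bulk, in which a change in RNA per cell cannot be told apart from a change in the make-up of the culture.

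Proteins that enter the secretory pathway are folded in the ER by the HSP70 chaperone BiP (HSPA5) with its J-domain partners, by the HSP90 paralogue HSP90B1, by the lectins calnexin and calreticulin and by protein disulfide isomerases. When unfolded proteins accumulate, the sensors IRE1 (ERN1), ATF6 and PERK raise the transcription of these helpers; IRE1 splices the messenger RNA of XBP1 into a form that encodes a transcription factor, and ATF6 is itself cut to release one. In secretory lung epithelium and in tumours derived from it this response keeps pace with the load of secreted protein.

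Promoters of many of these genes carry the ER stress elements that ATF6 and XBP1 bind. In RefSeq windows of GRCh38.p14 that run from 250 bases before to 50 bases after a start site, both strands were searched for the ER stress element ERSE (CCAAT, 9 bases, CCACG), the shorter element ERSE-II (ATTGG, 1 base, CCACG) and the element UPRE (TGACGTGG). The ERSE was found for 8 of the 34 members with a window (23.53%), against 25 of 27305 genes (0.092%). The ERSE-II was found for 3 members (8.82%), against 19 genes (0.07%), and the UPRE for 3 members (8.82%), against 253 genes (0.927%). HYOU1 holds 2 ERSE-II matches, and its UPRE overlaps the one printed here; HSP90B1 holds a second ERSE in the opposite direction. The 7 elements printed here belong to members that the results return to, with the element in capitals, 12 bases on either side in small letters and the strand of the gene read 5′ to 3′. All lie before the start site. HSPA5, HSP90B1 and XBP1 hold the ERSE in the direction of the gene and CRELD2 holds it in the opposite direction, while HERPUD1 holds the ERSE-II in the direction of the gene and SDF2L1 and HYOU1 hold it in the opposite direction.
HSPA5, chr9:125241379-125241421, minus strand: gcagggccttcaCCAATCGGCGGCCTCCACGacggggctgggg
HSP90B1, chr12:103930204-103930246, plus strand: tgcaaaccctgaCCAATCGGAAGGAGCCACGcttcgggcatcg
XBP1, chr22:28800591-28800633, minus strand: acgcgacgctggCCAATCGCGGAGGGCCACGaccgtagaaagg
CRELD2, chr22:49918542-49918584, plus strand: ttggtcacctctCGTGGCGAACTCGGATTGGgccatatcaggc
HERPUD1, chr16:56932013-56932047, plus strand: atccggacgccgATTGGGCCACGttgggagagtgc
SDF2L1, chr22:21642102-21642136, plus strand: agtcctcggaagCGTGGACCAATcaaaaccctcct
HYOU1, chr11:119057368-119057402, minus strand: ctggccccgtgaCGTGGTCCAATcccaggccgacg

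Levels below are log2 intensities, and differences are log2 values ± the standard error of the limma model fitted over all arrays and genes. Adjusted p-values are Benjamini-Hochberg values over the 19775 genes, and "rose", "fell" and "passed" refer to an adjusted p under 0.05. A level depends on the probe set, so levels are compared between groups and never between genes. HES1, the best known Notch target, averaged 7.995 ± 0.219 in A549 with GSI at 6 h and 9.63 ± 0.04 with vehicle, and 7.80 ± 0.14 with GSI at 24 h and 9.99 ± 0.12 with vehicle (SD, n = 4 each). In H460a its group means lay between 6.15 and 6.69. HES1 did not pass between GSI and vehicle in H460a at 6 h or at 24 h. Its GSI effect at 6 h in A549 minus that in H460a was -1.29 ± 0.18 (limma adjusted p = 0.000299). Of the epithelial markers, KRT8 averaged 13.59 in A549 and 12.94 in H460a, CDH1 averaged 10.28 in A549 and 4.57 in H460a, KRT19 averaged 6.89 in A549 and 13.66 in H460a, and EPCAM averaged 5.60 in A549 and 4.76 in H460a. Of the leukocyte markers, PTPRC averaged 5.27 in A549 and 5.20 in H460a, CD3E 6.89 and 6.83, and CD14 8.80 and 8.63. The mean linear intensity of an array was 468 to 496 in A549 vehicle at 6 h, 496 to 531 on GSI arrays 1 and 2 of that line and time, 583 to 589 on its GSI arrays 3 and 4, and 570 to 613 on the other 24 arrays. H460a vehicle array 3 at 6 h had a beta-actin 3′ to 5′ log2 ratio of 2.19, against 0.14 to 0.42 on the other 31 arrays. Counts that use those groups are therefore given also after quantile normalization of all arrays or without A549 GSI arrays 3 and 4 at 6 h and H460a vehicle array 3.

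In H460a at 6 h, 6 of the 37 members rose with GSI and 0 fell, where 0.0708% of all genes (14 genes) rose and 0.0253% fell. The 14 genes include these 6 members. Members were chosen with earlier results of these data known, so counts of members may not be independent of that choice. The 6 were DNAJB9 and DNAJC3, J-domain partners of BiP, HERPUD1, the membrane protein that organises the degradation complex, SDF2L1, a component of BiP and J-protein complexes, SLC33A1, the acetyl-CoA carrier of the ER membrane, and ALG2, a mannosyltransferase that builds the glycan donor for N-glycosylation. The median difference was 0.20 over the members and 0.0020 over all genes. All 4 GSI arrays lay above all 4 vehicle arrays for 19 members, against 4.34% of all genes, and for 0 members below them, against 2.39%.

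DNAJB9 had log2 levels of 9.64, 9.81, 9.80 and 9.86 on the GSI arrays of H460a at 6 h, against 8.78, 8.83, 9.18 and 8.88 on the vehicle arrays. The lowest GSI array stood above the highest vehicle array, which is the one with the high beta-actin ratio. The difference was 0.86 ± 0.090 (limma adjusted p = 7.05e-07), 1.81-fold, and 0.95 without the arrays that stand apart. The other 2 probe sets of DNAJB9 differed by 0.77 and 1.25 in the same comparison. DNAJB9 is known as ERdj4, which binds the luminal part of IRE1 and delivers misfolded proteins for degradation.

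HERPUD1 had levels of 11.79, 11.83, 11.83 and 11.82 on the GSI arrays of H460a at 6 h, against 10.96, 10.92, 11.22 and 11.03 on the vehicle arrays. The GSI arrays were nearly identical and again all above vehicle. The difference was 0.78 ± 0.065 (limma adjusted p = 3.42e-09), 1.72-fold. Its second probe set, with a mean level of 6.37 over the 32 arrays, differed by -0.05.

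SDF2L1 had levels of 11.18, 11.35, 11.17 and 11.27 with GSI, against 10.90, 10.80, 10.29 and 10.82 with vehicle in H460a at 6 h. Vehicle array 3 was the low one, and the groups did not overlap with or without it. The difference was 0.54 ± 0.087 (limma adjusted p = 0.00277), and 0.40 (adjusted p = 0.00381) without the arrays that stand apart. DNAJC3, also called p58IPK, had 10.81, 10.85, 10.89 and 10.91 with GSI, against 10.47, 10.46, 10.40 and 10.41 with vehicle. Its difference was 0.43 ± 0.079 (limma adjusted p = 0.0119), and its adjusted p was 0.0626 without GSI array 4. The other 3 probe sets of DNAJC3 differed by less, between -0.0048 and 0.088.

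SLC33A1 had 9.18, 9.28, 9.21 and 9.23 with GSI, against 8.78, 8.76, 8.87 and 8.76 with vehicle (0.43 ± 0.070, limma adjusted p = 0.00277). ALG2 had 10.93, 10.92, 10.88 and 10.97 with GSI, against 10.50, 10.43, 10.70 and 10.48 with vehicle (0.40 ± 0.069, limma adjusted p = 0.00663). In both genes every GSI array was above every vehicle array. With only the arrays of the comparison, DNAJB9 and HERPUD1 were the members that passed, where 0.0101% of all genes passed. With the mean of all probe sets DNAJB9, HERPUD1, SDF2L1 and SLC33A1 passed, against 0.0556% of all genes. After quantile normalization all 6 passed, as did HSPA13, against 0.101% of all genes. Without the arrays that stand apart all 6 passed, as did HSPA13 and DERL2, against 0.111% of all genes. The other probe sets of SLC33A1 differed by 0.40, 0.51 and 0.031, and that of ALG2 by 0.065. ALG2 and SEC61B, which encodes a subunit of the translocation channel, are transcribed away from each other on chromosome 9 with start sites 340 bases apart. SEC61B differed by 0.17 ± 0.064 in this comparison and did not pass (limma adjusted p = 0.324).

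HSPA5, HSP90B1, PDIA6, CANX, CALR, P4HB, CRELD2 and MANF did not pass in H460a at 6 h. HSPA5 had 14.35, 14.29, 14.31 and 14.28 with GSI, against 14.16, 14.22, 14.38 and 14.25 with vehicle, and these ranges overlapped. Its difference was 0.06 ± 0.075 (95% interval -0.10 to 0.21, limma adjusted p = 0.834), while its second probe set differed by 0.28. HSP90B1 differed by 0.09 ± 0.081, and by -0.50 on its second probe set, PDIA6, a disulfide isomerase, by 0.08, and the calnexin gene CANX by -0.01, with differences between -0.14 and 0.22 on its other 4 probe sets. The calreticulin gene CALR differed by 0.10, and by 0.74 and 0.024 on its other probe sets. P4HB, the founding protein disulfide isomerase, differed by -0.04, and by 0.48 and 0.11 on its other probe sets. CRELD2, a small ER protein with disulfide isomerase activity, differed by 0.13 ± 0.061, and MANF, a BiP-binding protein that is also secreted, by 0.21 ± 0.058, and neither passed (limma adjusted p = 0.403 and 0.197). Of the sensors and factors, XBP1 differed by 0.14, ATF6 by -0.05 and ERN1 by -0.06.

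Some further members had separated groups in H460a at 6 h without passing. HSPA13, an ER ATPase of the HSP70 family, differed by 0.44 ± 0.098 (limma adjusted p = 0.0614), and by 0.52 (adjusted p = 0.00789) without the arrays that stand apart. Its second probe set differed by 0.16. The disulfide isomerase PDIA4 differed by 0.59 ± 0.16, and HYOU1, the nucleotide exchange factor of BiP, by 0.38 ± 0.11, with vehicle array 3 as the lowest array in each. Without the arrays that stand apart the difference was 0.31 for PDIA4 and 0.19 for HYOU1. The second probe set of PDIA4 differed by 0.16 with all arrays. STT3A, a catalytic subunit of the oligosaccharyltransferase, had 10.51, 11.11, 10.63 and 11.32 with GSI, against 10.75, 10.44, 8.27 and 9.56 with vehicle. These groups overlapped, and the difference of 1.13 ± 0.42 did not pass (limma adjusted p = 0.324). The plot of differences in the 4 GSI comparisons shows these values beside those of the other groups.

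**Figure D1:**
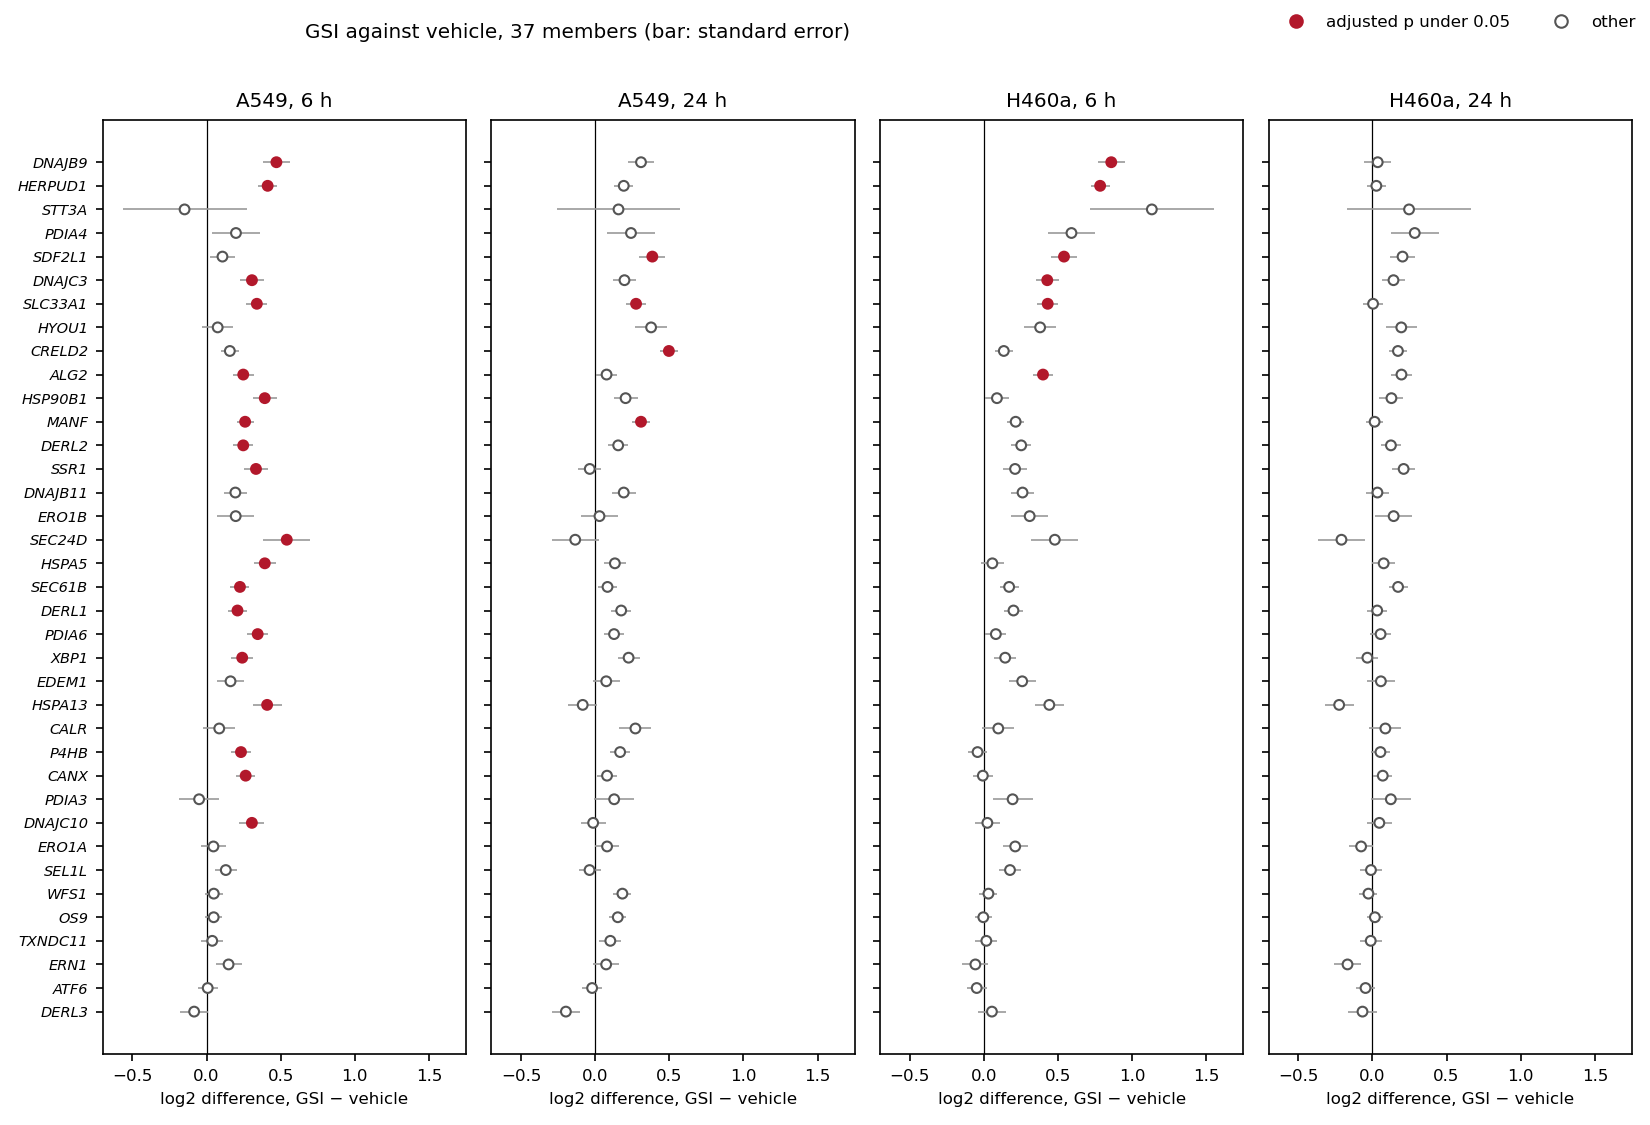
Differences of the 37 members between GSI and vehicle in A549 and H460a at 6 h and 24 h, as log2 values on the horizontal axes, with bars for the limma standard error and filled points for adjusted p under 0.05. In H460a, DNAJB9 and HERPUD1 lie at 0.86 and 0.78 at 6 h and at 0.04 and 0.03 at 24 h.

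Of the 11 members with an ERSE or ERSE-II in the window, 2 rose in H460a at 6 h, HERPUD1 and SDF2L1, against 4 of the 22 measured members with a window and neither element. Those 4, DNAJB9, DNAJC3, SLC33A1 and ALG2, hold no UPRE either. A match is a string of letters only, and no match says that these letters are not in this window.

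In H460a at 24 h, 0 of the 37 members passed in either direction with limma, and 6 had an unadjusted p under 0.05, against 5.79% of all genes. Of all genes 0.00506% (1 gene, TTC17) rose and 0% fell. DNAJB9 had 8.80, 8.64, 8.42 and 8.59 with GSI at 24 h, against 8.59, 8.57, 8.53 and 8.62 with vehicle. HERPUD1 had 11.46, 11.27, 11.18 and 11.23 with GSI, against 11.30, 11.22, 11.28 and 11.23 with vehicle. In both genes the 24 h groups overlapped, with differences of 0.04 ± 0.090 and 0.03 ± 0.065. HYOU1, CANX and the derlin gene DERL2, whose product belongs to the degradation channel, were the 3 members with every GSI array above every vehicle array, against 1.82% of all genes. Their differences were 0.19, 0.07 and 0.12. HSPA5 differed by 0.08, HSP90B1 by 0.13, SDF2L1 by 0.20, CRELD2 by 0.17, MANF by 0.01, XBP1 by -0.03, ATF6 by -0.05 and ERN1 by -0.17.

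The GSI effect of H460a was smaller at 24 h than at 6 h for HERPUD1 and DNAJB9, and 0 members passed in the other direction. These 2 members were the only genes of all 19775 to pass in that comparison (0.0101%). The effect at 24 h minus that at 6 h was -0.76 ± 0.091 for HERPUD1 (limma adjusted p = 3.65e-05) and -0.82 ± 0.13 for DNAJB9 (limma adjusted p = 0.00277). Without the arrays that stand apart the values were -0.82 and -0.91, and HSPA13 passed as well at -0.74 (adjusted p = 0.0108), against 0.0152% of all genes. The corresponding difference was -0.43 ± 0.099 for SLC33A1, -0.34 ± 0.12 for SDF2L1, -0.29 ± 0.11 for DNAJC3 and -0.20 ± 0.098 for ALG2, and these did not pass.

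**Figure D2:**
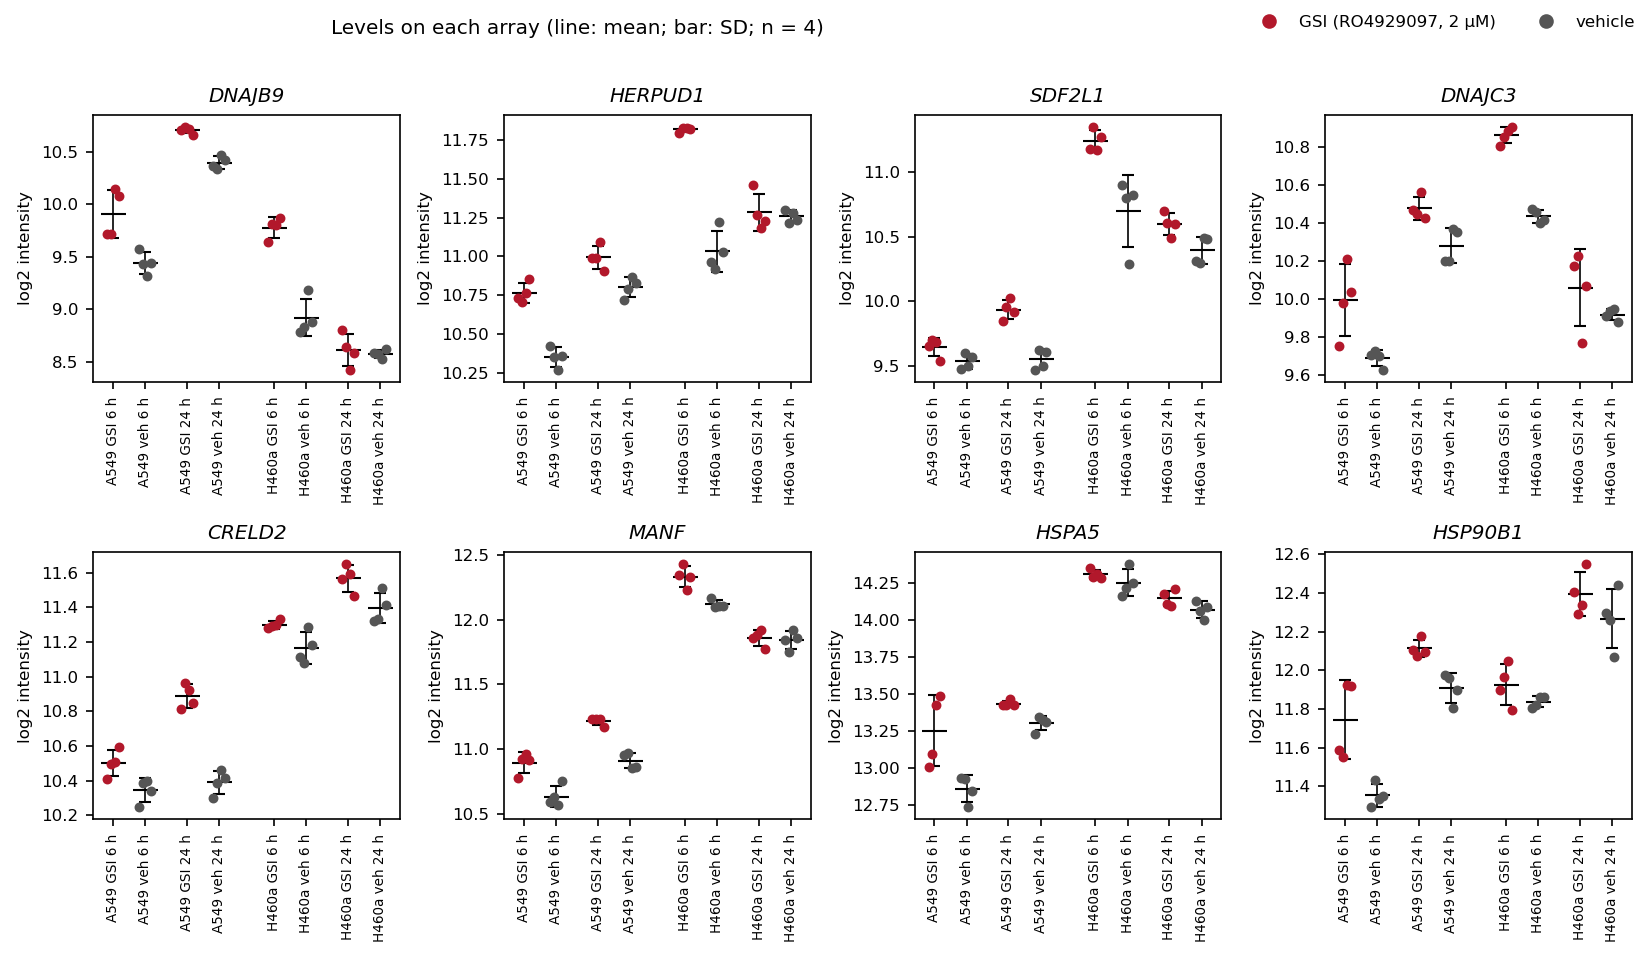
Log2 intensity of 8 members on every array, by line, treatment and time, with GSI left of vehicle; lines mark means and bars the SD (n = 4). DNAJB9 and HERPUD1 are separated in H460a at 6 h and overlap at 24 h, and CRELD2 and MANF are separated in A549 at 24 h.

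In A549 at 24 h, 4 members rose with GSI and 0 fell, where 1.32% of all genes rose and 0.885% fell. They were CRELD2, SDF2L1, MANF and SLC33A1. The median difference was 0.15 over the members and 0.0070 over all genes, and 21 members had all GSI arrays above all vehicle arrays, against 7.1% of all genes. DERL3, another derlin gene, was the 1 member whose GSI arrays all lay below vehicle, against 5.14% of all genes.

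CRELD2 had levels of 10.81, 10.96, 10.92 and 10.85 on the GSI arrays of A549 at 24 h, against 10.30, 10.39, 10.46 and 10.41 on the vehicle arrays. The gap between the groups was wider than the spread within either. The difference was 0.50 ± 0.061 (limma adjusted p = 1.93e-06), 1.41-fold, and it was larger than at 6 h by 0.34 ± 0.086 (limma adjusted p = 0.0284). CRELD2 was the 1 member to pass in that test with a larger effect at 24 h, where 0.657% of all genes did. That call was lost without vehicle array 2 or 3 or GSI array 3 of 6 h, or vehicle array 2 or GSI array 2 of 24 h (differences of 0.31 to 0.34, adjusted p between 0.0513 and 0.0819).

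SDF2L1 had 9.85, 9.96, 10.03 and 9.92 with GSI, against 9.47, 9.63, 9.50 and 9.61 with vehicle in A549 at 24 h (0.39 ± 0.087, limma adjusted p = 0.00886). MANF had 11.23, 11.23, 11.23 and 11.17 with GSI, against 10.95, 10.97, 10.86 and 10.86 with vehicle (0.31 ± 0.058, limma adjusted p = 0.00113). Neither pair of groups overlapped. SLC33A1 had 9.41, 9.52, 9.61 and 9.54 with GSI, against 9.28, 9.12, 9.28 and 9.29 with vehicle (0.28 ± 0.070, limma adjusted p = 0.0252). SLC33A1 passed by the smallest margin, and did not pass when any 1 of 4 arrays was left out (vehicle array 2 and GSI arrays 2, 3 and 4, adjusted p between 0.0670 and 0.130).

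HYOU1 had 11.33, 11.47, 11.43 and 11.43 with GSI, against 10.94, 11.16, 11.07 and 10.98 with vehicle in A549 at 24 h. The groups did not overlap, yet HYOU1 did not pass (0.38 ± 0.11, limma adjusted p = 0.0518). It passed after quantile normalization (0.38, adjusted p = 0.0447). DNAJB9 had 10.71, 10.73, 10.72 and 10.66 with GSI, against 10.37, 10.33, 10.47 and 10.42 with vehicle (0.31 ± 0.090, limma adjusted p = 0.0666), and it passed after quantile normalization (0.30, adjusted p = 0.00742).

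HSPA5 had 13.42, 13.42, 13.46 and 13.43 with GSI in A549 at 24 h, against 13.23, 13.34, 13.32 and 13.31 with vehicle. The arrays did not overlap, but the difference of 0.13 ± 0.075 did not pass (limma adjusted p = 0.533). The second probe set of HSPA5 differed by 0.31, and HSPA5 passed with the mean of its probe sets. HSP90B1 differed by 0.21, XBP1 by 0.23, HERPUD1 by 0.19, CALR by 0.27, ERN1 by 0.07 and ATF6 by -0.02, and none of these passed. Of the 11 members with an ERSE or ERSE-II, CRELD2 and SDF2L1 rose at 24 h, against 2 of the 22 without, MANF and SLC33A1. With 7 members the count was larger after quantile normalization, when DNAJB9, HYOU1 and HERPUD1 passed too and 1.68% of all genes rose.

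In A549 at 6 h, 19 members rose with GSI and 0 fell, where 11.6% of all genes rose and 1.51% fell. After quantile normalization over all arrays 4 members rose, DNAJB9, HSPA13, HERPUD1 and SLC33A1, where 1.34% of all genes rose. Without the arrays that stand apart HERPUD1 alone passed, where 0.111% of all genes passed. The median of the members was 0.21 as deposited and 0.026 after quantile normalization, against 0.021 and -0.022 over all genes. Leaving out 1 array gave 8 members without vehicle array 3, 5 without GSI array 3 and 7 without GSI array 4. No share of all genes is given for these fits, so their counts cannot be read as particular to the members. The array intensities given above moved with this comparison, and their part in the counts was not tested.

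HERPUD1 had 10.73, 10.71, 10.77 and 10.86 with GSI in A549 at 6 h, against 10.43, 10.36, 10.27 and 10.36 with vehicle. GSI arrays 1 and 2, with mean intensities of 496 to 531 against 468 to 496 in vehicle, also lay above every vehicle array. The part of intensity in the difference was not tested. The difference was 0.41 ± 0.065 (limma adjusted p = 0.000434), 0.25 (adjusted p = 0.00816) after quantile normalization, and 0.37 (adjusted p = 0.0161) without the arrays that stand apart. Its second probe set, with a mean level of 6.37, differed by -0.16. With the mean of all probe sets HERPUD1 did not pass.

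DNAJB9 had 9.71, 9.71, 10.14 and 10.07 with GSI, against 9.57, 9.43, 9.32 and 9.44 with vehicle in A549 at 6 h. GSI arrays 3 and 4 were the high ones. Its difference was 0.47 ± 0.090 (limma adjusted p = 0.00269), 0.35 after quantile normalization (adjusted p = 0.00471), and 0.27 without the arrays that stand apart, where it did not pass (adjusted p = 0.293).

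HSPA5 had 13.004, 13.09, 13.42 and 13.48 with GSI, against 12.93, 12.92, 12.73 and 12.84 with vehicle. GSI arrays 1 and 2 exceeded the highest vehicle array by less than the gap between arrays 2 and 3. The difference of 0.39 ± 0.075 (limma adjusted p = 0.00276) was 0.10 (adjusted p = 0.276) after quantile normalization. HSP90B1, with 11.59, 11.55, 11.93 and 11.92 on the GSI arrays and 11.29, 11.43, 11.33 and 11.35 on the vehicle arrays, was also highest on GSI arrays 3 and 4 and differed by 0.39 as deposited and by 0.19 (adjusted p = 0.113) after quantile normalization. Its second probe set, with a mean level of 8.63, differed by -0.12.

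Among the other risers as deposited were SEC24D, the cargo-binding coat protein of vesicles leaving the ER (0.54 ± 0.16), HSPA13 (0.41 ± 0.098), PDIA6 (0.34 ± 0.070), SLC33A1 (0.34 ± 0.070), SSR1, a subunit of the translocon-associated complex (0.33 ± 0.078), DNAJC3 (0.31 ± 0.079), MANF (0.26 ± 0.058) and XBP1 (0.24 ± 0.074). CRELD2 (0.16 ± 0.061), SDF2L1 (0.11 ± 0.087), ERN1 (0.15 ± 0.088) and ATF6 (0.01 ± 0.066) did not pass. The plot of A549 at 6 h under both scalings shows the shift for every member.

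**Figure D3:**
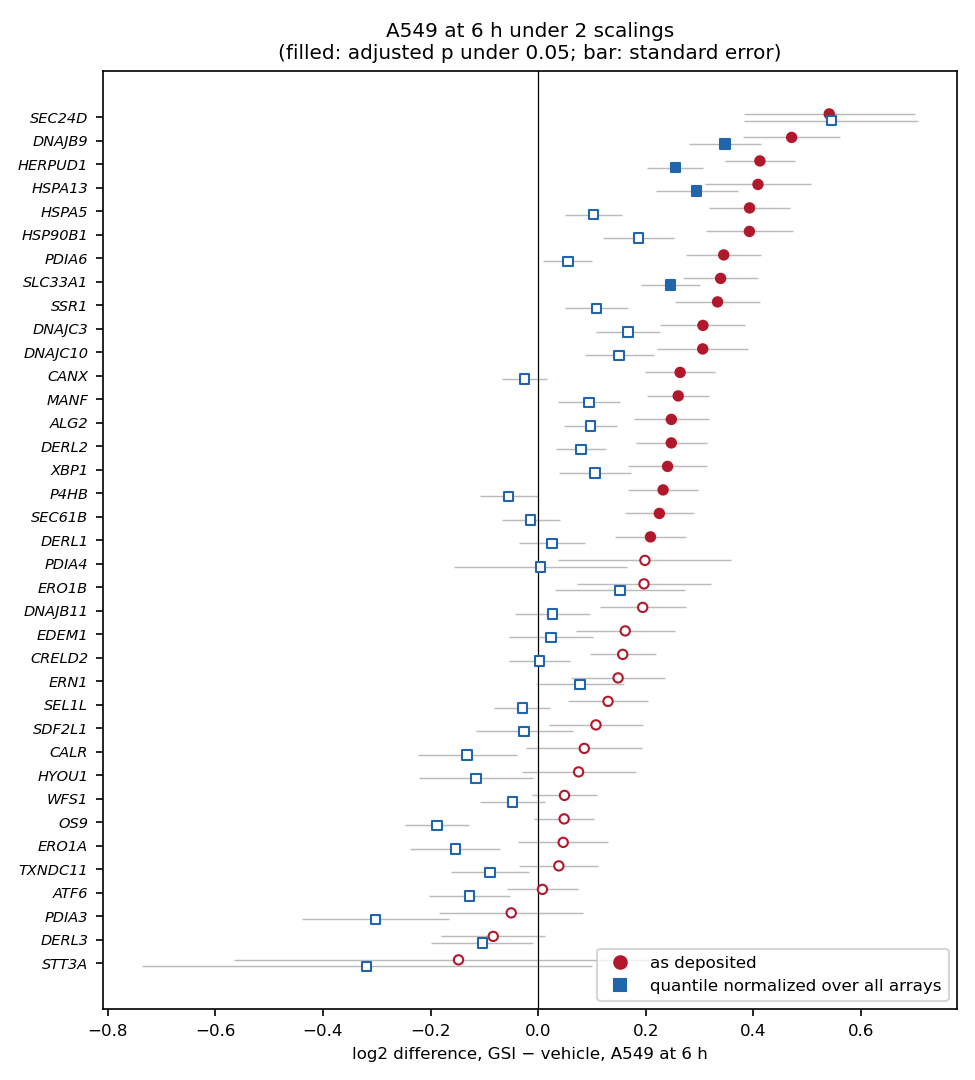
Differences of the 37 members between GSI and vehicle in A549 at 6 h as log2 values, as deposited (circles) and after quantile normalization over all arrays (squares), with bars for the limma standard error and filled symbols for adjusted p under 0.05. HERPUD1 lies at 0.41 and 0.25, HSPA5 at 0.39 and 0.10.

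HSPA13 was the 1 member of 37 that passed in A549 with a smaller GSI effect at 24 h than at 6 h (-0.49 ± 0.14, limma adjusted p = 0.0428). Of all genes 3.05% passed in that direction and 3.71% in either, so 1 member is no more than that share. HSPA13 did not pass in that comparison after quantile normalization or without the arrays that stand apart. It was also lost without 1 array in 11 cases, which were vehicle arrays 2, 3 and 4 and GSI arrays 3 and 4 of 6 h, and vehicle arrays 2, 3 and 4 and GSI arrays 1, 2 and 4 of 24 h (differences of -0.51 to -0.43, adjusted p between 0.0609 and 0.138). CRELD2 passed in that comparison under both.

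Averaged over both lines and times, 19 members had a higher level with GSI and 0 a lower one, where 1.79% of all genes were higher and 0.399% lower. After quantile normalization 13 were higher, where 0.936% of all genes were higher. DNAJB9 (0.42 ± 0.045, limma adjusted p = 2.60e-07), HERPUD1 (0.35 ± 0.032, limma adjusted p = 1.22e-08) and PDIA4 (0.33 ± 0.080) had the largest mean effects of those that passed. SDF2L1 (0.31), DNAJC3 (0.27), SLC33A1 (0.26), HYOU1 (0.26), CRELD2 (0.24), ALG2 (0.23), HSP90B1 (0.20), MANF (0.20), DERL2 (0.19), HSPA5 (0.16) and XBP1 (0.14) also passed. XBP1 was lost without 1 array in 9 cases (adjusted p between 0.0502 and 0.0602), of which 4 were A549 vehicle arrays 3 and 4 and GSI arrays 3 and 4 of 6 h, 2 were A549 vehicle array 1 and GSI array 3 of 24 h, and 3 were H460a vehicle array 1 and GSI arrays 2 and 4 of 6 h. ATF6 differed by -0.03 (adjusted p = 0.717) and ERN1 had an adjusted p of 0.996. PDIA4, HSPA5 and XBP1 were among the members that did not pass after quantile normalization. With the mean of all probe sets 16 members passed, where 2.44% of all genes passed. DNAJC3, ALG2, HSP90B1 and XBP1 were not among those 16.

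No member passed in the test of the GSI effect between lines. In A549 minus H460a 0 of 37 members passed at 6 h, where 0.121% of all genes did, and 10 had an unadjusted p under 0.05, against 14.9% of all genes. At 24 h 0 members passed, where 0.637% of all genes did, and 7 had an unadjusted p under 0.05, against 9.02% of all genes. The difference at 6 h was -0.37 ± 0.091 for HERPUD1 (limma adjusted p = 0.0805), -0.39 ± 0.13 for DNAJB9 (adjusted p = 0.145), -0.43 ± 0.12 for SDF2L1 (adjusted p = 0.110) and 0.34 ± 0.11 for HSPA5 (adjusted p = 0.137). HERPUD1 and DNAJB9 passed after quantile normalization, at -0.47 and -0.44, and without the arrays that stand apart, at -0.48 and -0.67. Without A549 GSI array 1 of 6 h, 6 members passed at 6 h, among them HERPUD1 (-0.36), SDF2L1 (-0.44) and HSPA5 (0.42). HERPUD1 (-0.43) passed when H460a vehicle array 3 was dropped. How many of all genes passed in these fits is not given, so the 6 cannot be taken as particular to the members. A549 GSI array 1 had a mean intensity of 496, and GSI arrays 3 and 4 had 583 to 589. What intensity contributed to these calls was not tested. At 24 h CRELD2 differed by 0.33 ± 0.086 (limma adjusted p = 0.0866) and MANF by 0.29 ± 0.082 (adjusted p = 0.113), with a larger effect in A549 for both, and CRELD2 passed without the arrays that stand apart (adjusted p = 0.0341).

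Members also changed with culture time in vehicle, and the change differed between lines. These comparisons share their vehicle arrays with the GSI comparisons. In A549, 28 members were higher at 24 h than at 6 h and 0 were lower, where 29.2% of all genes were higher and 15% lower. After quantile normalization 14 were higher and 9 lower, where 16.6% of all genes were higher and 22.1% lower. The median of the members was then 0.0027, against 0.40 as deposited, so only the changes that hold under both scalings are described as rises.

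XBP1 had 10.71, 10.74, 10.73 and 10.78 in A549 vehicle at 24 h, against 9.78, 9.63, 9.46 and 9.57 at 6 h. The gap between the groups was wider than the range of either. The difference was 1.13 ± 0.074 (limma adjusted p = 1.02e-12), 2.19-fold, and 0.88 after quantile normalization. ERN1, the sensor whose product splices XBP1, had 8.89, 9.05, 9.26 and 9.07 at 24 h, against 8.04, 8.06, 8.02 and 8.09 at 6 h. It rose by 1.02 ± 0.088, and by 0.89 after quantile normalization. DNAJB9 rose by 0.96 ± 0.090 and by 0.72 after quantile normalization. ERO1B, an oxidase that recharges disulfide isomerases, rose by 1.04 ± 0.13 (0.95 after quantile normalization) and SEC24D by 0.99 ± 0.16 (0.94).

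SSR1 (0.77 and 0.39), HSPA13 (0.76 and 0.54), DNAJC10, a disulfide reductase of the J-protein family (0.62 and 0.35), DNAJC3 (0.59 and 0.33), HSP90B1 (0.55 and 0.19) and HERPUD1 (0.45 and 0.17) also rose in A549 as deposited and after quantile normalization. HSPA5, at 13.23, 13.34, 13.32 and 13.31 at 24 h, against 12.93, 12.92, 12.73 and 12.84 at 6 h, differed by 0.44 ± 0.075 as deposited and by -0.04 after quantile normalization. MANF differed by 0.28 and -0.01 on the same scalings. Probe sets with lower levels differed in some of these genes. The second probe set of HSP90B1 gave -0.44 as deposited, that of XBP1 -0.021, and the other 2 of ERN1 -0.13 and 0.23. CRELD2 differed by 0.05 and -0.23, SDF2L1 by 0.01 and -0.23, and ATF6 by -0.09 and -0.33.

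In H460a, 9 members were higher and 11 lower at 24 h than at 6 h in vehicle, where 15.1% of all genes were higher and 15.3% lower. After quantile normalization 12 were higher and 12 lower, where 16.4% of all genes were higher and 15.7% lower. ERO1A, the second oxidase of the pair, had 11.49, 11.60, 11.76 and 11.58 at 24 h, against 11.13, 11.03, 10.56 and 11.08 at 6 h. It had the largest rise of the members (0.66 ± 0.083, limma adjusted p = 1.18e-07), and its lowest 6 h array is the one with the high beta-actin ratio. ERO1B rose by 0.51 ± 0.13, HSP90B1 by 0.43 ± 0.081, CRELD2 by 0.23 ± 0.061 and HERPUD1 by 0.22 ± 0.065. PDIA4 rose by 0.51 ± 0.16 (limma adjusted p = 0.0144) but did not pass without vehicle array 3 of 6 h (0.23, adjusted p = 0.154) or without vehicle array 3 of 24 h (0.39, adjusted p = 0.0828). Its second probe set differed by 0.14.

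DERL2 fell by the most in H460a. It had 10.09, 10.004, 10.05 and 10.04 at 24 h, against 10.52, 10.54, 10.82 and 10.54 at 6 h (-0.56 ± 0.067, limma adjusted p = 3.01e-08). SLC33A1 (-0.52 ± 0.070), DNAJC3 (-0.52 ± 0.079), ALG2 (-0.48 ± 0.069), DNAJB9 (-0.34 ± 0.090), SDF2L1 (-0.31 ± 0.087) and MANF (-0.28 ± 0.058) fell too. The GSI comparison of H460a at 6 h uses the same 6 h vehicle arrays. HSPA5 (-0.18), XBP1 (0.14), ATF6 (0.01) and ERN1 (-0.13) did not pass as deposited, though HSPA5 did after quantile normalization (-0.24) and XBP1 without vehicle array 3 of 6 h (0.21).

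The change with culture time differed between A549 and H460a for 23 members, being higher in A549 for 22 and lower for 1, where 24.4% of all genes were higher and 11.1% lower. After quantile normalization it was higher for 13 and lower for 6, where 14.2% of all genes were higher and 16.8% lower. DNAJB9 differed by 1.30 ± 0.13 (1.04 after quantile normalization), ERN1 by 1.15 ± 0.12 (1.03), SEC24D by 1.12 ± 0.23 (1.08), DNAJC3 by 1.11 ± 0.11 (0.83) and SSR1 by 1.08 ± 0.11 (0.73). SLC33A1 (1.05, and 0.87 after quantile normalization), ALG2 (1.00 and 0.71), XBP1 (0.99 and 0.72), DERL2 (0.84 and 0.52), HSPA5 (0.62 and 0.21), MANF (0.55 and 0.24) and SDF2L1 (0.32 and 0.05) followed, of which SDF2L1 did not pass after quantile normalization. SDF2L1 was also lost without any 1 of A549 vehicle arrays 1 and 3 of 6 h and 2 and 4 of 24 h, or H460a vehicle arrays 1, 2 and 4 of 6 h and 1 and 2 of 24 h (differences of 0.26 to 0.31, adjusted p between 0.0694 and 0.106). HERPUD1 (0.22), HSP90B1 (0.13), CRELD2 (-0.18) and ATF6 (-0.10) did not pass as deposited. HERPUD1 passed (0.25 to 0.26) without A549 vehicle array 1 of 6 h or of 24 h or H460a vehicle array 1 or 2 of 6 h, and CRELD2 (-0.23) without H460a vehicle array 3 of 6 h. ERO1A was the 1 member that passed as deposited with a lower value in A549 (-0.37 ± 0.12, and -0.70 after quantile normalization).

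**Figure D4:**
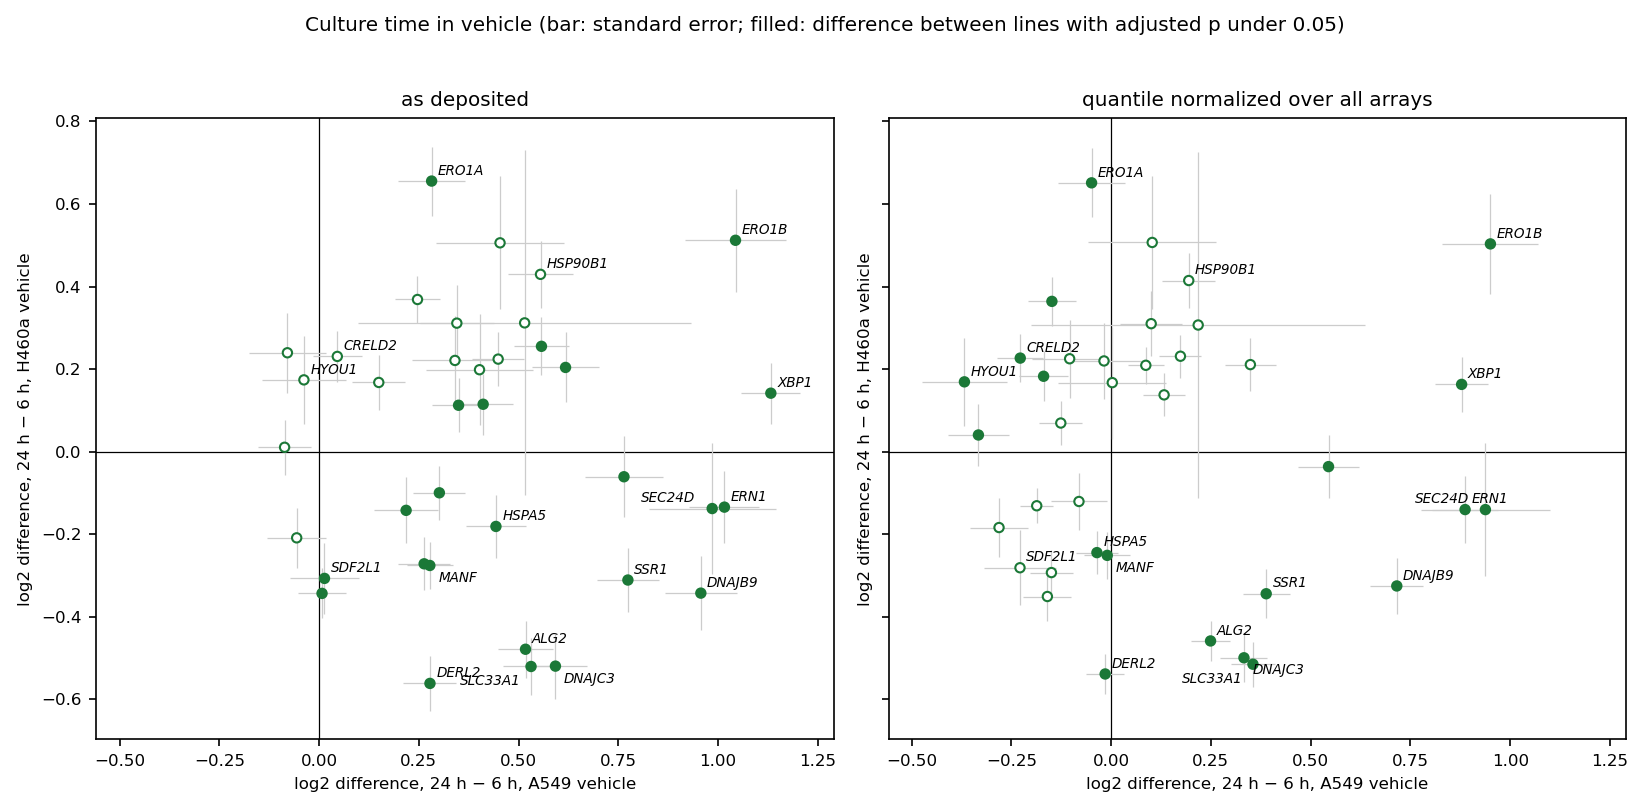
Change of each member in vehicle, 24 h minus 6 h as log2 values, in A549 (horizontal) and H460a (vertical), as deposited (left) and after quantile normalization (right). Bars are limma standard errors and filled points are members whose change differed between lines; DNAJB9 lies at 0.96 and -0.34 as deposited, and HSPA5 at 0.44 and -0.18.

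In vehicle at 24 h, where the mean intensities of both lines lay in the same range, 12 members were higher in A549 than in H460a and 18 were lower. Of all genes 25.2% were higher and 21.7% lower. DNAJB9 was higher in A549 by 1.82 ± 0.090, with 10.37, 10.33, 10.47 and 10.42 in A549 and 8.59, 8.57, 8.53 and 8.62 in H460a. ERN1 was higher by 1.71 ± 0.088, with 8.89 to 9.26 in A549 and 7.25 to 7.47 in H460a. STT3A (1.13 ± 0.42), WFS1, an ER membrane protein of calcium balance (1.11 ± 0.061), SLC33A1 (0.97 ± 0.070), ERO1B (0.97 ± 0.13), XBP1 (0.96 ± 0.074) and DERL2 (0.89 ± 0.067) were also higher in A549. The SE of STT3A was several times those of the others, its levels in H460a were 9.86, 9.77, 11.20 and 9.44, and it did not pass without H460a vehicle array 1, 2 or 4 (0.92 to 1.06, adjusted p between 0.0588 and 0.0991). The other 2 probe sets of ERN1 differed by 0.089 and 0.40, the second of XBP1 by 0.12 and the second of ERO1B by -0.059, all in the same comparison.

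Of the 18 members that were lower in A549, HYOU1 differed the most (-1.18 ± 0.11). It had 10.94, 11.16, 11.07 and 10.98 in A549 and 12.14, 12.19, 12.27 and 12.25 in H460a. ATF6 (-1.17 ± 0.066), CRELD2 (-1.005 ± 0.061), MANF (-0.93 ± 0.058), SDF2L1 (-0.84 ± 0.087), HSPA5 (-0.77 ± 0.075), HERPUD1 (-0.46 ± 0.065) and HSP90B1 (-0.36 ± 0.081) were lower in A549 as well. Every A549 array was below every H460a array for each of these 8 genes. All 4 measured probe sets of ATF6 differed in the same direction, between -1.10 and -1.38.

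**Figure D5:**
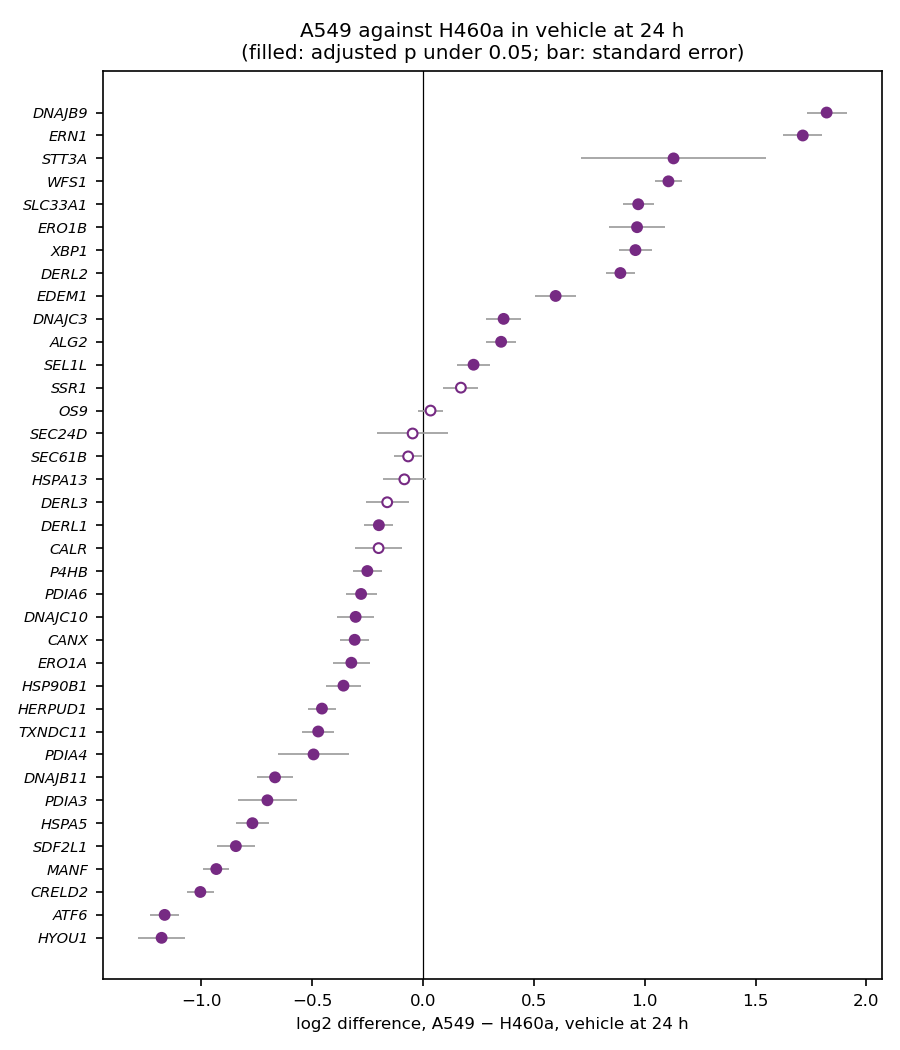
Differences of the 37 members between A549 and H460a in vehicle at 24 h as log2 values, with bars for the limma standard error and filled points for adjusted p under 0.05. DNAJB9 and ERN1 are highest in A549 relative to H460a at 1.82 and 1.71, and HYOU1 and ATF6 lowest at -1.18 and -1.17.

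At 6 h in vehicle 6 members were higher in A549 and 24 lower, where 28.5% of all genes were higher and 28.6% lower. After quantile normalization 12 were higher and 18 lower, where 32.8% of all genes were higher and 22.9% lower. MANF (-1.49 ± 0.058, and -1.15 after quantile normalization), HSPA5 (-1.39 ± 0.075, and -0.92), SEC24D (-1.17 ± 0.16, and -1.17) and SDF2L1 (-1.16 ± 0.087, and -0.89) had the largest differences. ATF6 (-1.07), DNAJB11, the J-protein of the BiP and SDF2L1 complex (-1.03), HYOU1 (-0.97), SSR1 (-0.91), HSPA13 (-0.91), PDIA3, the disulfide isomerase that works with the lectin chaperones (-0.91), CRELD2 (-0.82), HERPUD1 (-0.68) and HSP90B1 (-0.48) were lower too, of which HSP90B1 did not pass after quantile normalization (-0.08). ERN1 (0.56) and DNAJB9 (0.52) were higher in A549, as at 24 h. XBP1 differed by -0.03 as deposited and did not pass, and by 0.23 after quantile normalization.

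Other genes of the pathway, in 7 lists with 165 genes of which 153 were measured, were set beside the members. Like the members, these lists were chosen with earlier results of these data known. In H460a 0 of the 153 passed with limma at 6 h or at 24 h. At an unadjusted p under 0.05 there were 34 at 6 h and 9 at 24 h, against 11.1% and 5.79% of all genes. After quantile normalization 1 rose at 6 h, against 0.0759% of all genes. In A549 at 24 h 1 rose, TRIB3, a pseudokinase induced by ATF4 (0.24), where 1.32% of all genes rose. After quantile normalization 3 rose and 5 fell, against 1.68% and 1.40% of all genes. In A549 at 6 h 68 rose and 1 fell as deposited, against 11.6% and 1.51% of all genes. After quantile normalization 3 rose and 0 fell, against 1.34% and 1.48% of all genes. By list as deposited, 14 of 21 genes of ER translocation and signal peptide cleavage and 8 of 26 of N-glycosylation and glycan trimming rose there. Of other PDI family and ER redox genes 7 of 14 rose, and of other ER-associated degradation genes 14 of 27 rose. So did 5 of 20 of the PERK and ATF4 arm and other stress regulators, 10 of 29 of ER to Golgi transport and 10 of 16 of the cytosolic and mitochondrial chaperones.

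With culture time in vehicle 104 of the 153 genes were higher and 5 lower in A549. Of all genes 29.2% were higher and 15% lower there. After quantile normalization 41 were higher and 37 lower, against 16.6% and 22.1% of all genes. In H460a 42 were higher and 51 lower, against 15.1% and 15.3% of all genes. After quantile normalization 46 were higher and 55 lower there, against 16.4% and 15.7% of all genes. Of the cytosolic and mitochondrial chaperones 12 of 16 were lower in H460a and 0 higher. HSPH1, an exchange factor of cytosolic HSP70, fell there by 1.27 on the log2 scale, DNAJB1 by 1.02 and DNAJA1 by 0.99. UBE2G2, a ubiquitin-conjugating enzyme, fell by 0.92, SELENOS, of the degradation complex, by 0.87, EIF2S1, the initiation factor that PERK phosphorylates, by 0.81, ALG5 by 0.79, SRPRB, of the signal recognition particle receptor, by 0.77, and PPP1R15B, a subunit of the phosphatase that acts on EIF2S1, by 0.44. DPM3, of dolichol-phosphate mannose synthase, rose in H460a by 1.08, VKORC1, the vitamin K epoxide reductase, by 0.76, HERPUD2 by 0.62, CREB3L4 by 0.57, SEC23A, a COPII coat protein, by 0.44, ARFGAP3 by 0.43 and STT3B, the paralogue of STT3A, by 0.31. All of these passed after quantile normalization too.

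In A549 vehicle, TMX3, a membrane disulfide isomerase, rose by 0.91 as deposited and by 0.71 after quantile normalization, ARFGAP3 by 0.93 and 0.73, HERPUD2 by 0.79 and 0.56, SEC23A by 0.76 and 0.41, STT3B by 0.75 and 0.38 and COPB1, of the COPI coat, by 0.72 and 0.28. SELENOF rose by 0.69 and 0.39, SRP9 by 0.68 and 0.21, PPP1R15B by 0.68 and 0.41 and TRAM1, of the translocation channel, by 0.66 and 0.22. SELENOS differed by 0.49 and 0.12, HSPH1 by 0.45 and 0.097 and ALG5 by 0.25 and -0.022, and none of them passed after quantile normalization. EIF2S1 (0.15 and -0.19) and DNAJA1 (0.29 and -0.19) passed as higher as deposited and as lower after quantile normalization. DNAJB1 (-0.084 and -0.41) and VKORC1 (0.15 and -0.19) passed only after quantile normalization, as lower.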

How the data were processed

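The deposited value table holds 1 intensity per probe set and array. The submitters' processing notes name RMA, and its version is not given. The intensities, on a linear scale, are the authors' own values. They were turned into log2 values here, with no further scaling in the results given first. Leaving out 62 control probe sets, 1801 with several symbols and 11721 with none left 41091 probe sets of 19775 genes. Per gene the probe set of highest mean was used. The 8 group means were fitted with limma 3.58.1 in R 4.3.3 over the 32 arrays, with Benjamini-Hochberg adjustment over all genes; the number of arrays limits the precision (median standard error 0.0874). The steps were tested on simulated data. Plots were drawn with matplotlib 3.10.9.

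Members and lists were chosen with earlier results of these data known. Named in every comparison are HSPA5, HSP90B1, HERPUD1, DNAJB9, SDF2L1, CRELD2, MANF, XBP1, ATF6 and ERN1, then up to 6 further members with the largest differences among those past the threshold, or all where 8 or fewer pass. Other members, and TRIB3, were named after their values were seen. The lists are ER translocation and signal peptide cleavage, N-glycosylation and glycan trimming, other PDI family and ER redox, other ER-associated degradation, PERK and ATF4 arm and other stress regulators, ER to Golgi transport, and cytosolic and mitochondrial chaperones; up to 3 genes of each were eligible for naming. Markers of epithelial, alveolar type II, leukocyte, endothelial and fibroblast cells served to check the lines; alveolar type II markers ranged from 4.65 to 8.98 in A549 and from 5.10 to 8.47 in H460a, leukocyte markers from 5.20 to 8.80, endothelial markers from 4.89 to 7.61 and fibroblast markers from 5.70 to 9.26 over both lines.

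Alternatives were only the arrays of the comparison, genes under the median level left out, the mean of all probe sets, quantile normalization (within a line, or over the whole set of arrays), a trended and robust eBayes step, centring on the median, a replicate block, leaving out 3 arrays that stand apart, and leaving out each array. Quantile normalization together with leaving out the 3 arrays was added after seeing the data. A note on embryos in the descriptions matches no other label and was disregarded.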

Additional observations from a re-analysis of the deposited data

Results flagged for a closer look

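The GSI effect differed between 24 h and 6 h by limma's test for HERPUD1 (-0.76) and DNAJB9 (-0.82) in H460a and for CRELD2 (0.34) and HSPA13 (-0.49) in A549. The change with culture time in vehicle, A549 minus H460a, differed for DNAJB9 (1.30), ERN1 (1.15), SEC24D (1.12), DNAJC3 (1.11), SSR1 (1.08), SLC33A1 (1.05), ALG2 (1.00), XBP1 (0.99), DERL2 (0.84), HSPA5 (0.62), MANF (0.55) and SDF2L1 (0.32).

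Some of the members that the naming rule selects had 1 array far from the other 3 of its group by Dixon's criterion, which chance meets in about 1 of 20 groups. H460a vehicle array 3 at 6 h, the one with the high beta-actin ratio, accounted for 4 of the 14 cases: HYOU1 at 11.46 and SDF2L1 at 10.29 were low there, and DERL2 at 10.82 and HSPA13 at 10.34 were high. In the other groups of H460a these were MANF on vehicle array 1 at 6 h (12.16), HERPUD1 on GSI array 1 at 6 h (11.79), and DNAJB11 on GSI array 2 at 6 h (12.13) and on GSI array 3 at 24 h (11.38). In A549 they were PDIA3 on vehicle array 4 at 6 h (11.98) and on vehicle array 1 at 24 h (11.98), SEC24D on vehicle array 1 at 24 h (8.06), SLC33A1 on vehicle array 2 at 24 h (9.12), HSPA5 on GSI array 3 at 24 h (13.46) and MANF on GSI array 4 at 24 h (11.17).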

How the results depend on the processing

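Counts of members past the threshold were recomputed under each alternative, with the percentage of all genes tested that passed in brackets. No such percentage is given for the fits without 1 array, so those counts cannot be read as particular to the members. In A549 at 6 h (19 as reported) they were 1 with the comparison's own arrays (0.147%). With the mean of all probe sets they were 10 (9.14%). Quantile normalization gave 4 over all arrays (2.82%) and 4 within each line (2.24%). Without the 3 arrays that stand apart there was 1 as deposited (0.111%) and 1 with quantile normalization (0.212%). Leaving out each array in turn gave 5 to 20. There were 8 without vehicle array 3, 5 without GSI array 3 and 7 without GSI array 4. In A549 at 24 h (4) they were 7 with own arrays (3.14%) and with the mean of all probe sets (2.34%). They were also 7 with quantile normalization over all arrays (3.07%) and without the 3 arrays (3.36%). Both of the last together gave 14 (4.26%), and leaving out each array gave 3 to 4. In H460a at 6 h (6) they were 2 with own arrays, where those 2 were the only genes past the threshold (0.0101%). They were 5 to 8 without each array. The mean effect (19) gave 12 with quantile normalization within each line (1.70%). The effect between lines (0 as reported) gave at 6 h 1 with low genes left out or eBayes with trend and robust, 2 with either quantile normalization or without the 3 arrays on either scaling, and 0 to 6 without each array (6 without A549 GSI array 1, 1 without H460a vehicle array 3); at 24 h it gave 1 with low genes left out, with the mean of all probe sets or without the 3 arrays on either scaling. The effect of A549 at 24 h minus 6 h (2) gave 4 with low genes left out, 0 with centring, 1 without the 3 arrays and 0 to 7 without each array, and that of H460a (2) gave 1 with the mean of all probe sets.

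Same-numbered arrays of GSI and vehicle deviated with correlations of -0.35 to 0.32, so the numbers were not taken to pair them. With the replicate block the count was 3 in H460a at 6 h (DNAJB9, HERPUD1 and SDF2L1, against 0.0202% of all genes). It was 0 for the effect of A549 at 24 h minus 6 h (1.20%), and no other count moved by over 1.5 times.

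Directions turned in A549 vehicle, 24 h against 6 h, for ATF6 (0.25 with the mean of all probe sets), HSPA5 (-0.036, -0.035 and -0.036) and MANF (-0.0099, -0.0092 and -0.010) with quantile normalization over all arrays, within the line and without the 3 arrays, for CRELD2 (-0.23) under the same 3, and for SDF2L1 (-0.23) under the first and last. They also turned for HSP90B1 in the change between lines (-0.25 with quantile normalization within each line) and for XBP1 in A549 against H460a at 6 h (0.23 with quantile normalization and 0.28 also without the 3 arrays). The cause was not tested. Of 1870 values of named members under the other alternatives 1695 kept direction and side of the threshold.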
